A study of Mus musculus with 9 samples.

Results

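The 9 genes described here encode ligands and receptors of the vascular endothelial growth factor (VEGF) and angiopoietin systems, together with a relative of the angiopoietins: Vegfa, Vegfb, Vegfc, Pgf, Flt1, Kdr, Angpt1, Angpt2 and Angptl4. They were chosen by name, and all 9 were measured among the 22180 genes that the array annotation allowed to be tested. Where a gene had several probe sets with exactly 1 symbol, the brightest on average stood for it. RNA came from mouse podocytes in culture, the epithelial cells that wrap the capillaries of the kidney glomerulus, after 11 days of differentiation at 37 °C. The 3 groups of 3 arrays were treated for 16 hours with thapsigargin (2.5 µM) plus forskolin (10 µM), with thapsigargin (2.5 µM) alone, or with the vehicle DMSO. Thapsigargin blocks the SERCA pump and so empties calcium from the endoplasmic reticulum (ER). Forskolin raises cAMP by switching on adenylyl cyclase. No group received forskolin alone, so its effect without thapsigargin was not measured. The labels give neither a genotype nor a strain, and do not say in what the biological replicates were separate, so p-values cover the spread between these arrays, which may be technical.

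VEGF-A is secreted by podocytes in the glomerulus and acts on the neighbouring endothelial cells through the receptor tyrosine kinases VEGFR-2, encoded by Kdr, and VEGFR-1, encoded by Flt1. VEGF-B and placental growth factor (Pgf) bind VEGFR-1, whereas VEGF-C acts mainly through VEGFR-3. Angiopoietin-1 activates the endothelial receptor TIE2 and steadies vessels, and angiopoietin-2 often opposes it there. Angiopoietin-like 4 (Angptl4) inhibits lipoprotein lipase and does not act through TIE2.

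Values are log2 values that the authors made with RMA, so a difference of 1 is a 2-fold change. Arrays of a group correlated at 0.989 to 0.993 and arrays of different groups at 0.966 to 0.992. Array medians lay between 5.80 and 5.88 with lower quartiles between 4.53 and 4.59. Of 12 measured podocyte markers 0 lay below the lower quartile on all arrays of a group, but nephrin (Nphs1), at 6.25 to 6.71 over the 9 arrays, was only somewhat above the array medians. Of 15 endothelial markers 1, Emcn, lay below the lower quartile on all 9 arrays, at 3.84 to 3.96, and Pecam1 and Cdh5 lay between 5.57 and 6.22. Ehd3, from the same list, was far brighter, at 8.90 to 9.12 on the combined arrays, 9.14 to 9.18 on the thapsigargin arrays and 10.30 to 10.40 on the DMSO arrays. The RNA was from bulk culture, so fewer cells of a type and less RNA per cell cannot be told apart.

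The 250 bases before the annotated start are shown for 3 members, because Vegfa and Vegfb changed in opposite directions after thapsigargin and Flt1 was the member called lower with added forskolin. They come from RefSeq on GRCm38.p6, in which 6 of the 9 members have an entry, and all 3 lie on the minus strand. Capitals mark matches, on either strand, to the hypoxia response element cores ACGTG and GCGTG, the short cAMP response element core TGACG, the full cAMP response element TGACGTCA (which contains that core on both strands), the C/EBP-ATF element TGATGNAA and the ER stress element, CCAAT and CCACG parted by 9 bases.
Vegfa, chr17:46032378-46032627: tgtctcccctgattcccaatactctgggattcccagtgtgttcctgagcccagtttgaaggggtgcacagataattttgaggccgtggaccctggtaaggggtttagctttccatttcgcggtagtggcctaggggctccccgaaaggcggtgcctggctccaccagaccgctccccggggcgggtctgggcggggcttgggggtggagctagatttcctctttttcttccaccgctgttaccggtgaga
Vegfb, chr19:6987652-6987901: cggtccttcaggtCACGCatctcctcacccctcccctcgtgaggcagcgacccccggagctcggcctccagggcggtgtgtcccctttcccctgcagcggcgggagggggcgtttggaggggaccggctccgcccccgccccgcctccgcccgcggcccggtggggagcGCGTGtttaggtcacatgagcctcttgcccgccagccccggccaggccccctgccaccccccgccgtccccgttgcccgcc
Flt1, chr5:147726012-147726261: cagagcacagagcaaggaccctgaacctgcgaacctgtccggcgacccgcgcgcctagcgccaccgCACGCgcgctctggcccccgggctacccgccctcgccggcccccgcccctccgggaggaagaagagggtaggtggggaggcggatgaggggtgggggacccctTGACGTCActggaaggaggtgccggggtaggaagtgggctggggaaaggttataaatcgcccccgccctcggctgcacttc
This Vegfa window held none of these motifs. The absence applies to that window only. A second annotated Vegfa start, chr17:46025164-46025413 for its 250 bases, lies downstream of the first on the minus strand. Those bases held 1 match to each of the hypoxia response element cores and 1 to the short cAMP response element core. Whether they act as a promoter was not tested. The match to ACGTG, beginning 211 bases before that start, and the match to TGACG, beginning 209 before it, overlap and share bases. The Vegfb window held 2 matches to GCGTG, a core found in 28.16% of 32851 promoter windows of this length, and 76.4% of its bases were G or C. The Flt1 window held the full TGACGTCA, beginning 81 bases before the start, which 1.55% of all windows hold, and 1 match to GCGTG. Of the motifs not found in the 3 printed windows, ACGTG was in 16.57% of all windows, TGATGNAA in 3.45% and the ER stress element in 0.11%; the core TGACG was in 17.77%. A match is a description of the letters in this window only. Angpt1, Angpt2 and Angptl4 have no entry.

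**Figure D1:**
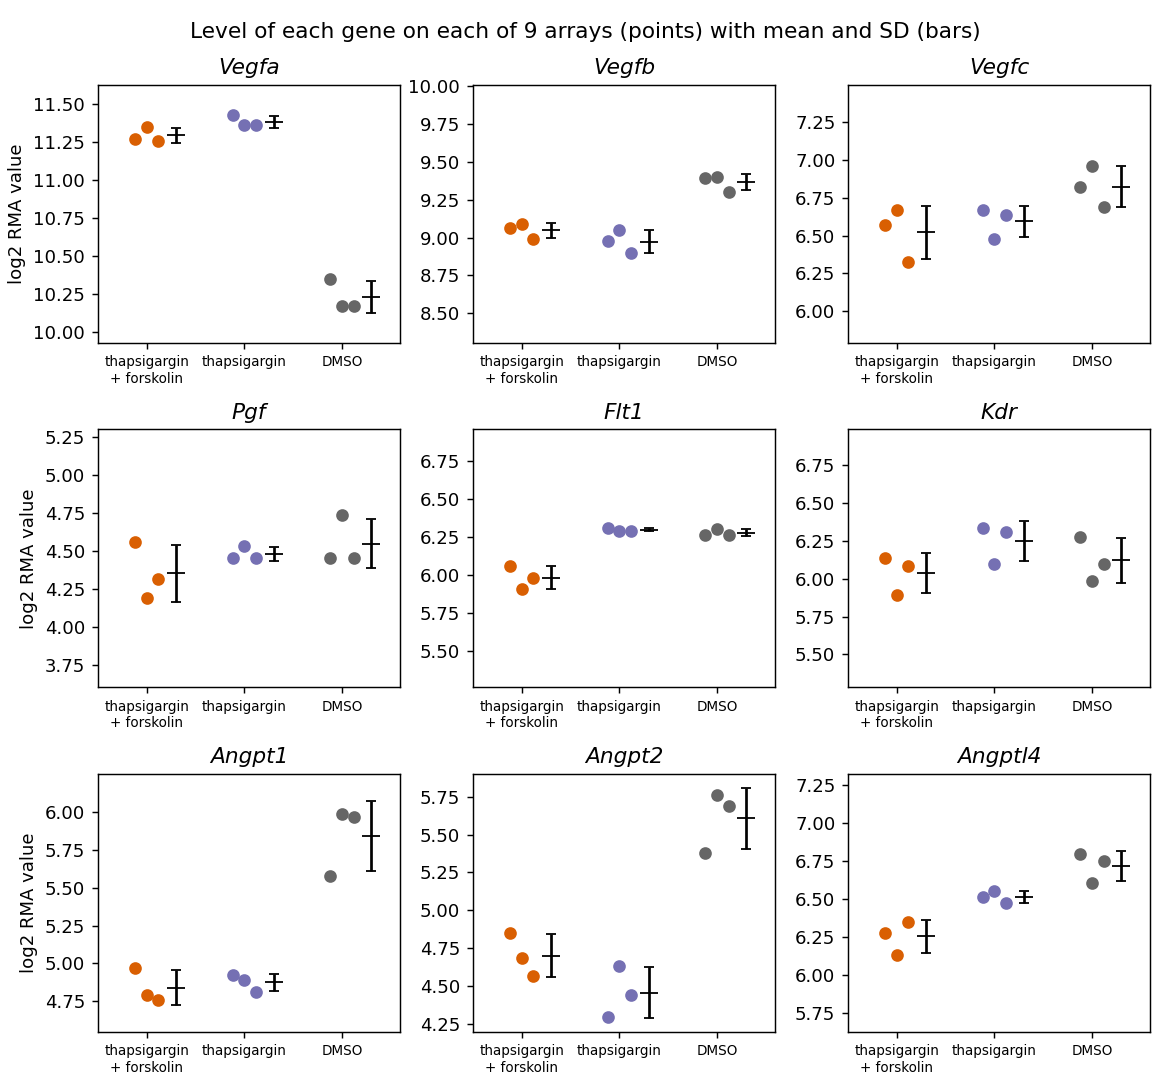
The log2 RMA value of each of the 9 genes on every array, with 3 arrays each of thapsigargin with forskolin (left), thapsigargin (middle) and DMSO (right); the bar beside the points is the mean with its SD. Vegfa stood above DMSO in both thapsigargin groups, Angpt1 and Angpt2 stood below it, and Flt1 was lower only where forskolin had been added.

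The first question was which of these genes differed after thapsigargin alone. Vegfa rose, and Vegfb, Angpt1 and Angpt2 fell. Thus 1 member was higher and 3 were lower in limma with Benjamini-Hochberg adjustment below 0.05, beside 18.2% and 16.9% of all genes called higher and lower, and 35% in either direction. Groups did not overlap for 1 member that was higher and 5 that were lower, beside 21.6% and 22.3% of all genes, and 43.9% in either direction. The median change of the 9 members was -0.21, beside -0.04 over all genes. With 4 of 9 called, the share of members stood close to that of the array as a whole, so the description rests on the single genes.

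Vegfa, the main VEGF ligand of the glomerulus, measured 11.43, 11.36 and 11.36 on the thapsigargin arrays, against 10.35, 10.17 and 10.17 on the DMSO arrays. Every thapsigargin array was at least 1.01 above the highest DMSO array. The mean was 11.38 ± 0.04 after thapsigargin and 10.23 ± 0.10 with DMSO (SD, n = 3 each), a 2.225-fold rise (log2 change 1.15 ± 0.06 SE, limma adjusted p = 6.1e-07).

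Vegfb, whose product binds VEGFR-1 and is known for actions on fatty acid uptake, moved the other way. It measured 8.98, 9.05 and 8.90 after thapsigargin, against 9.39, 9.40 and 9.30 with DMSO. The groups did not overlap, and the change was -0.39 ± 0.06 (limma adjusted p = 0.000563).

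Vegfc and Pgf did not pass the test. Vegfc, a ligand of lymphatic growth, measured 6.67, 6.48 and 6.63 after thapsigargin, against 6.82, 6.96 and 6.69 with DMSO. Its groups were separated by only 0.019, and the difference was -0.23 with a 95% interval from -0.46 to 0.0058 (limma adjusted p = 0.129). Pgf, which encodes placental growth factor, measured 4.46, 4.53 and 4.46 after thapsigargin, against 4.46, 4.74 and 4.46 with DMSO. Pgf lay near the lower quartile of every array, with the identical value 4.4554 on 4 of these 6 arrays, and its difference was -0.07 with an interval from -0.31 to 0.17.

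Neither receptor gene passed the test after thapsigargin alone. Flt1 measured 6.31, 6.29 and 6.29 after thapsigargin, against 6.26, 6.30 and 6.26 with DMSO, a difference of 0.02 with an interval from -0.10 to 0.14 (limma adjusted p = 0.806). Kdr measured 6.34, 6.10 and 6.31 after thapsigargin, against 6.28, 5.99 and 6.10 with DMSO, a difference of 0.13 with an interval from -0.10 to 0.35 (limma adjusted p = 0.388). In both genes the groups overlapped, and both lay only somewhat above the array medians.

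Both angiopoietin genes fell after thapsigargin. Angpt1, the TIE2 agonist, measured 4.92, 4.89 and 4.81 after thapsigargin, against 5.58, 5.98 and 5.97 with DMSO. Angpt2, the context-dependent antagonist, measured 4.30, 4.63 and 4.44 after thapsigargin, against 5.38, 5.76 and 5.69 with DMSO. In each gene all thapsigargin arrays lay below all DMSO arrays, and DMSO replicate 1 was the lowest of its group. The log2 change was -0.97 ± 0.11 for Angpt1 (limma adjusted p = 7.65e-05) and -1.15 ± 0.12 for Angpt2 (limma adjusted p = 4.9e-05).

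These levels were low, and for Angpt1 the probe sets disagreed. Angpt2 lay below the lower quartile on 2 of 3 thapsigargin arrays and below the array median on all 9 arrays, and background was not measured here. A further Angpt1 probe set, at 3.87 to 4.37 and below the lower quartile on all 9 arrays, differed by only -0.02 between thapsigargin and DMSO (limma adjusted p = 0.917 when every probe set was tested).

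Angptl4 measured 6.51, 6.55 and 6.47 after thapsigargin, against 6.80, 6.60 and 6.75 with DMSO. All thapsigargin arrays were lower, by a gap of 0.055, and the difference of -0.21 ± 0.07 did not pass (limma adjusted p = 0.0566). It passed without DMSO replicate 2 (adjusted p = 0.0273), without combined replicate 2 (adjusted p = 0.0415) and where dim genes had been filtered out (adjusted p = 0.0259).

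The second question was what forskolin added to thapsigargin. Flt1 fell and the other 8 members did not pass, beside 3.7% of all genes called higher, 4.17% called lower and 7.87% in either direction. Groups did not overlap for 3 members, all lower (Vegfa, Flt1 and Angptl4), beside 14% of all genes for that direction and 26.1% in either. Flt1 measured 6.06, 5.91 and 5.98 on the combined arrays, against 6.31, 6.29 and 6.29 on the thapsigargin arrays. The groups were separated by 0.233, and the change was -0.32 ± 0.05 (limma adjusted p = 0.0062), or 0.804-fold. It passed under all 19 alternatives, with changes from -0.35 to -0.28. Its DMSO replicates 1 and 3 held the identical value 6.2643. Over all arrays Flt1 lay at 5.91 to 6.31, only somewhat above the array medians of 5.80 to 5.88, and background was not measured.

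Vegfa did not pass the test for added forskolin. It measured 11.27, 11.35 and 11.26 on the combined arrays, against 11.43, 11.36 and 11.36 on the thapsigargin arrays, and the highest combined array lay 0.010 below the lowest thapsigargin array. The difference was -0.09 with an interval from -0.23 to 0.05 (limma adjusted p = 0.53). Vegfb measured 9.06, 9.09 and 8.99 on the combined arrays, a difference of 0.07 from thapsigargin alone with an interval from -0.06 to 0.21.

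The angiopoietin genes showed no called difference between the treatments. Angpt1 measured 4.97, 4.80 and 4.76 on the combined arrays, a difference of -0.04 from thapsigargin with an interval from -0.28 to 0.21. Angpt2 measured 4.85, 4.69 and 4.56 on the combined arrays, against 4.30, 4.63 and 4.44 on the thapsigargin arrays, a difference of 0.24 with an interval from -0.03 to 0.52 (limma adjusted p = 0.336). The groups overlapped in both genes.

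Angptl4 measured 6.28, 6.13 and 6.35 on the combined arrays, below all 3 thapsigargin arrays. The difference of -0.26 ± 0.07 missed the threshold (limma adjusted p = 0.0719) but passed after array weighting, centring on array medians, another quantile normalization and the filter on dim genes, with adjusted p from 0.029 to 0.0436. Kdr measured 6.14, 5.89 and 6.09 on the combined arrays, with a difference of -0.21 and an interval from -0.44 to 0.02. Vegfc at 6.57, 6.67 and 6.33 and Pgf at 4.56, 4.19 and 4.31 overlapped their values after thapsigargin alone, with differences of -0.07 and -0.13.

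**Figure D2:**
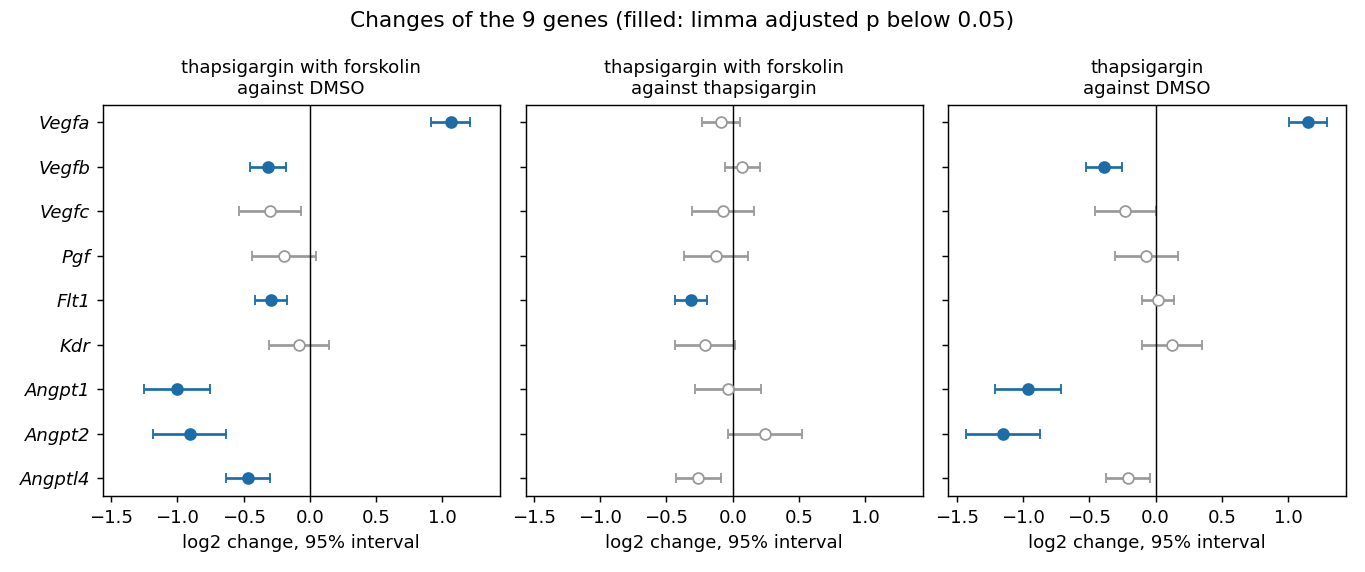
The log2 change of each gene with its 95% interval in thapsigargin with forskolin against DMSO, thapsigargin with forskolin against thapsigargin, and thapsigargin against DMSO (left to right). Filled points passed limma at an adjusted p below 0.05; Flt1 alone is filled in the middle panel, and Flt1 and Angptl4 are filled on the left but not on the right.

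The combined treatment was then set against DMSO, with which the first comparison shares its control arrays. Here 1 member rose and 5 fell, beside 17.9% and 16.7% of all genes and 34.5% in either direction. Groups did not overlap for 1 member that was higher and 6 that were lower, beside 21.4% and 21.2% of all genes, and 42.6% in either direction. Vegfa rose by 1.06 ± 0.06 (limma adjusted p = 1.2e-06). The log2 change was -0.32 ± 0.06 for Vegfb and -0.91 ± 0.12 for Angpt2, and Angpt1 fell by 50.05% on the linear scale. On its dimmer probe set the log2 change of Angpt1 was only -0.28 (limma adjusted p = 0.0397).

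Flt1 and Angptl4 were the members called here and not after thapsigargin alone. Flt1 was at 5.91 to 6.06 on the combined arrays, against 6.26 to 6.30 with DMSO, a change of -0.29 ± 0.05 (limma adjusted p = 0.00179). Angptl4 was at 6.13 to 6.35 on the combined arrays, against 6.60 to 6.80 with DMSO, a change of -0.46 ± 0.07 (limma adjusted p = 0.000767). For Flt1 the difference between the thapsigargin groups was itself called, as above, and for Angptl4 it was not. Vegfc lay at the threshold, with a difference of -0.30 ± 0.10 (limma adjusted p = 0.0504), and passed in 8 of 19 alternatives. Kdr and Pgf did not pass, at -0.08 and -0.20, and Pgf passed in 2 of 18 alternatives.

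Other genes of these families, taken from a list of 8 ligands and angiopoietin-like genes of which 5 were measured, held 1 gene that rose and 2 that fell after thapsigargin. Over all genes 18.2% were called higher and 16.9% lower after thapsigargin. For added forskolin 3.7% were called higher and 4.17% lower. These shares stand beside the counts of every list below, markers included. Vegfd, a ligand of VEGFR-3, measured 6.45, 6.34 and 6.33 after thapsigargin, against 8.99, 9.14 and 9.50 with DMSO, and fell by 2.84 ± 0.12 on the log2 scale (limma adjusted p = 1.02e-07). Angpt4, a further TIE2 ligand, measured 6.68, 6.53 and 6.48 after thapsigargin, against 9.41, 8.98 and 9.12 with DMSO, and fell by 2.61 ± 0.11. Angptl8, which acts with angiopoietin-like 3 on lipoprotein lipase, measured 10.28, 10.10 and 10.16 after thapsigargin, against 8.01, 7.87 and 7.86 with DMSO, and rose by 2.26 ± 0.07. None of these groups overlapped.

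With forskolin added, 1 of the 5 passed. Vegfd measured 6.84, 6.99 and 6.98 on the combined arrays and was 0.56 ± 0.12 higher than after thapsigargin alone (limma adjusted p = 0.0187). That call was lost when any of 4 arrays was left out (combined replicate 2, combined replicate 3, thapsigargin replicate 2 or thapsigargin replicate 3), with adjusted p from 0.0679 to 0.0735. Against DMSO the combined treatment left Vegfd at -2.28 ± 0.12, Angpt4 at -2.81 ± 0.11 and Angptl8 at 2.30 ± 0.07.

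Of 6 further receptors and partners 0 rose and 3 fell after thapsigargin. Both neuropilin genes, which encode co-receptors that present VEGF to its receptors, fell. Nrp1 lay at 10.27 to 10.37 after thapsigargin, against 11.29 to 11.40 with DMSO, and fell by 1.02 ± 0.05 on the log2 scale (limma adjusted p = 5.02e-07). Nrp2 lay at 8.90 to 9.13 after thapsigargin, against 10.33 to 10.37 with DMSO, and fell by 1.36 ± 0.07. Tie1, which encodes a partner of TIE2, fell by 0.47 ± 0.12 (limma adjusted p = 0.0143), a call lost without thapsigargin replicate 3 (adjusted p = 0.0587) or DMSO replicate 2 (adjusted p = 0.0583). Over the 9 arrays Tie1 lay at 5.23 to 6.02, around the array medians of 5.80 to 5.88.

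The other 3, named for their roles and not by the rule, were Flt4 (VEGFR-3), Tek (TIE2) and Ptprb (an endothelial phosphatase), at -0.12, 0.06 and 0.01. With forskolin added, Nrp2 fell by a further 0.32 ± 0.07 (limma adjusted p = 0.0246). This call was lost when combined replicate 1 or 2, or thapsigargin replicate 2 or 3, was left out (adjusted p from 0.0589 to 0.0853), and in the fit of the 6 arrays compared (adjusted p = 0.0571). Against DMSO the combined treatment gave -1.20 ± 0.05 for Nrp1 and -1.68 ± 0.07 for Nrp2.

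Of 9 genes for enzymes and helpers that process VEGF ligands 0 rose and 5 fell after thapsigargin, with a median of -0.55. Over all genes 18.2% rose and 16.9% fell, with a median of -0.04. The log2 change was -2.87 ± 0.07 for Plau, which encodes urokinase, -2.03 ± 0.11 for the proprotein convertase gene Pcsk6 and -0.75 ± 0.06 for Furin, another convertase. It was -1.39 ± 0.08 for Ccbe1, whose product helps a metalloprotease to mature VEGF-C. With forskolin added 2 rose and 1 fell. Plau was 2.56 ± 0.07 higher than after thapsigargin alone, at the identical value 9.3491 on all 3 combined arrays. Pcsk5, a further convertase, was 1.52 ± 0.07 higher, and Ccbe1 was lower by -0.41 ± 0.08.

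**Figure D3:**
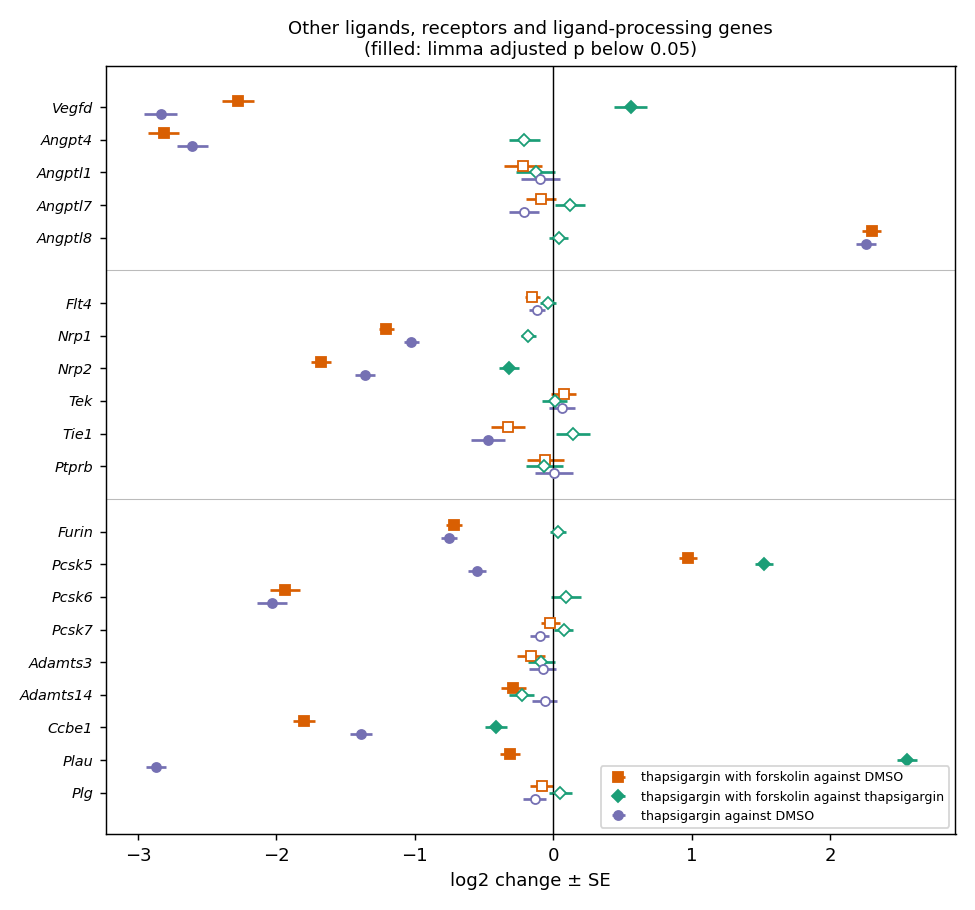
Log2 changes with SE for the other ligands (top block), receptors and partners (middle block) and ligand-processing genes (bottom block), with squares for thapsigargin with forskolin against DMSO, diamonds for thapsigargin with forskolin against thapsigargin and circles for thapsigargin against DMSO; filled symbols passed limma at an adjusted p below 0.05. Vegfd, Angpt4, Pcsk6 and Plau lie furthest to the left after thapsigargin, and Plau and Pcsk5 furthest to the right for added forskolin.

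Among 19 factors known to act on Vegfa 6 rose and 7 fell after thapsigargin, beside 18.2% and 16.9% of all genes. Among the rises were genes of ER stress factors, with Atf6 at 1.81 ± 0.06, Ern1 at 1.51 ± 0.07 and Xbp1 at 1.27 ± 0.05, while Zfp36, whose product destabilises AU-rich messages, was at -1.185 ± 0.08. Outside the rule for naming, Hif1a, the oxygen-regulated subunit of HIF-1, differed by -0.03 ± 0.05 and Epas1, that of HIF-2, changed by -1.07 ± 0.12. With forskolin added 0 of the 19 passed limma, beside 7.87% of all genes, and 1 had an unadjusted p below 0.05. Atf4 and Zfp36l1 differed by -0.01 ± 0.06 and 0.03 ± 0.06 for added forskolin. After thapsigargin alone both had been called, at 1.16 ± 0.06 and -0.54 ± 0.06.

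HIF targets did not move in a single direction. Of 15 measured 2 rose and 5 fell after thapsigargin, with a median of 0.0012. The glycolytic gene Pgk1 rose by 0.89 ± 0.06, whereas Adm (adrenomedullin) was at -1.48 ± 0.11, Pfkfb3 (a regulator of glycolysis) at -0.95 ± 0.06 and Car12 (a carbonic anhydrase) at -0.62 ± 0.12. With forskolin added Ndrg1, a stress-responsive gene, rose by 0.80 ± 0.05, and Ldha, lactate dehydrogenase A, was at -0.28 ± 0.07, a call lost under 9 of the alternatives.

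Angptl4 is itself a target of PPAR receptors. Of 13 measured genes in a list of other PPAR targets and the 3 PPAR receptor genes, 1 rose and 8 fell after thapsigargin. Over all genes 18.2% rose and 16.9% fell. The median of the list was -0.31. Among the falls were the fatty acid oxidation genes Acadm at -1.17 ± 0.08, Acaa2 at -0.83 ± 0.07, Acadl at -0.71 ± 0.07 and Cpt1a at -0.66 ± 0.05. With forskolin added Acaa2 was 0.47 ± 0.07 higher and Plin2, a lipid droplet gene, was at -0.32 ± 0.06, a call lost without thapsigargin replicate 3 (-0.29, limma adjusted p = 0.0605). The median over these genes was 0.08 for added forskolin, with 11 of 13 not called. Angptl4 itself, at -0.26, was not called there either, and a link between them was not tested.

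In the lipoprotein lipase axis, the enzyme that Angptl4 inhibits and its partners, 3 of 11 rose and 4 fell after thapsigargin. Sel1l, needed for the enzyme to leave the ER, rose by 2.02 ± 0.05, and Lrp1, Lipg and Sdc1, a receptor, an endothelial lipase and a heparan sulphate proteoglycan, were at -1.55 ± 0.08, -1.39 ± 0.08 and -0.86 ± 0.06. On its dimmer probe set Sdc1 was at -0.48 (limma adjusted p = 0.0461). Lpl itself, named outside the rule, lay at a mean of 4.21 in both groups, below the lower quartiles. With forskolin added Sdc1 was 0.79 ± 0.06 and Lipg 0.54 ± 0.08 higher.

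Of 13 measured secreted modulators of angiogenesis 0 rose and 7 fell after thapsigargin, beside 18.2% and 16.9% of all genes. Cxcl12, a chemokine that guides vessel cells, lay at 6.16 to 6.48 after thapsigargin, against 9.10 to 9.18 with DMSO, and fell by 2.80 ± 0.08 on the log2 scale. The anti-angiogenic matrix genes Thbs1 and Adamts1 were at -0.78 ± 0.05 and -0.71 ± 0.06, and Sema3a, a neuropilin ligand, at -0.66 ± 0.07. With forskolin added 2 rose and 3 fell. Cxcl12 was 1.42 ± 0.08 and Adamts1 1.11 ± 0.06 higher than after thapsigargin alone, and Ccn2, a matricellular gene, and Thbs1 were at -0.63 ± 0.06 and -0.33 ± 0.05. On its dimmer probe set Ccn2 differed by only -0.11 (limma adjusted p = 0.68).

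**Figure D4:**
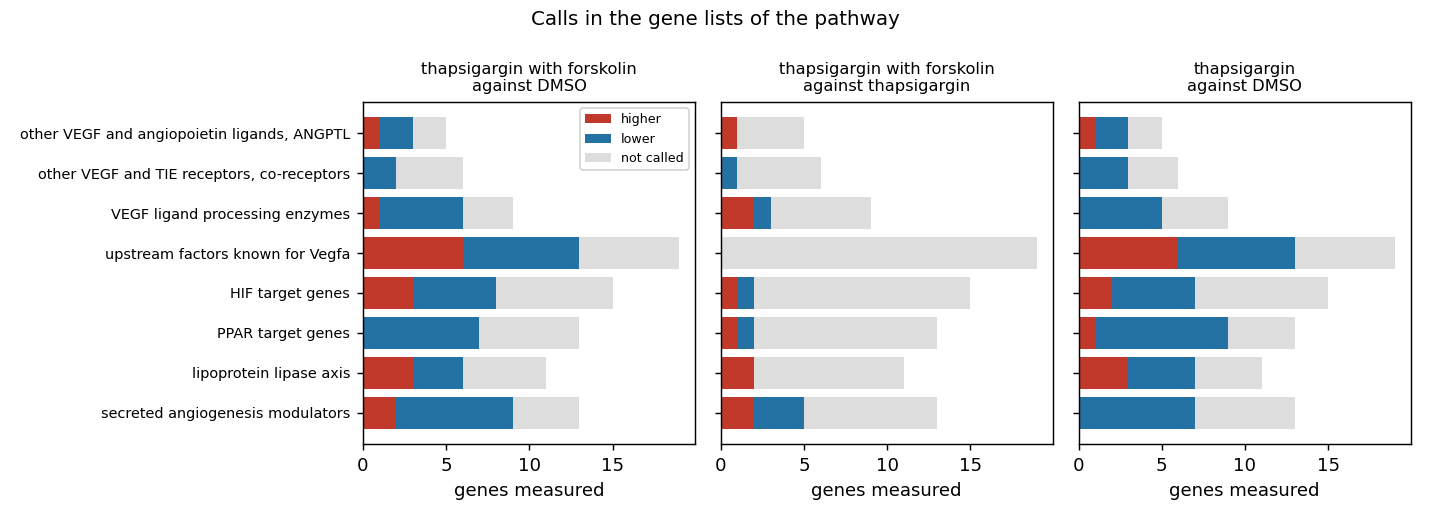
Number of measured genes in each of 8 pathway lists that were called higher (red), lower (blue) or not called (grey) by limma at an adjusted p below 0.05, in thapsigargin with forskolin against DMSO, thapsigargin with forskolin against thapsigargin, and thapsigargin against DMSO (left to right). In each list fewer genes were called for added forskolin than in either comparison with DMSO. The same held over all genes, with 7.87% called for added forskolin, 35% after thapsigargin and 34.5% for the combined treatment against DMSO. Of the 19 upstream factors 0 were called for added forskolin.

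Most markers of endothelial cells, which carry VEGF receptors, were not called. After thapsigargin 2 of 15 fell, Ehd3 (-1.21 ± 0.07) and Tie1 as above, and 0 rose; for added forskolin 0 of 15 passed limma and 1 had an unadjusted p below 0.05. The summed linear level of the 15 was 1163 to 1215 on the combined arrays, 1229 to 1285 on the thapsigargin arrays and 1988 to 2068 on the DMSO arrays. Ehd3 carried this difference, since the sum of the other 14 was 637 to 686 on the combined arrays, 664 to 707 on the thapsigargin arrays and 677 to 726 on the DMSO arrays. Of 12 podocyte markers 2 rose and 6 fell after thapsigargin, and 2 rose and 5 fell with forskolin added. Over all genes 3.7% rose and 4.17% fell with forskolin added. The podocyte sums were 6674 to 6971, 7895 to 8151 and 11634 to 11830 in the same order of groups. Without Actn4, the brightest, they were 4740 to 4896, 5147 to 5322 and 8018 to 8226. Plce1, from the same list, had means of 6.46, 7.75 and 11.19 and the largest change of the 12 after thapsigargin, at -3.45 ± 0.08. Sums without Plce1 were not made, so its part in the remaining difference is not shown. Synpo was at -2.52 ± 0.08, while Foxc2 and Cd2ap rose by 0.66 ± 0.06 and 0.23 ± 0.05. With forskolin added Plce1 was at -1.29 ± 0.08, whereas Synpo and Kirrel rose by 0.55 ± 0.08 and 0.37 ± 0.06.

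In the other marker lists a few genes were called. Of 8 macrophage markers 0 rose and 1 fell after thapsigargin, and 2 rose with forskolin added. The fall was that of Csf1r, at -1.18 ± 0.12, and the rises were Cd14 and Csf1r, by 0.87 ± 0.09 and 0.82 ± 0.12. The macrophage sum was 1041 to 1111 on the combined arrays, 736 to 805 on the thapsigargin arrays and 898 to 920 on the DMSO arrays. Cd14, Csf1r and the uncalled Cd68 lay above the array medians on all 9 arrays, at 7.82 to 9.02, 6.51 to 8.08 and 7.83 to 8.02. Adgre1, Itgam, Lyz2 and Aif1 lay below the medians, and the pan-leukocyte gene Ptprc below the lower quartile, on all 9 arrays. Of 8 mesangial and pericyte markers 0 rose and 2 fell after thapsigargin, and 2 rose with forskolin added, with sums of 2641 to 2854, 1295 to 1318 and 2237 to 2280 in the same order of groups. Among these Mcam, an adhesion molecule gene, was 2.58 ± 0.07 higher with forskolin added. Of 10 tubular markers 0 rose and 5 fell after thapsigargin, and 1 rose with forskolin added, with sums of 1409 to 1414, 1232 to 1295 and 6657 to 6790. The water channel gene Aqp1, at means of 8.31, 8.46 and 11.71, and the cadherin gene Cdh16, at 8.32, 7.79 and 11.16, made up most of the tubular sum with DMSO. The part of these differences in the results on the 9 members was not tested.

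The genes whose pattern over the 9 arrays was most like that of a member were found for the 3 members whose group means spanned at least 1. For Vegfa these were Sesn2, a stress-induced gene, Kansl3 and Slc23a2, with Pearson r of 0.9988, 0.9986 and 0.9983. Sesn2 had means of 11.74, 11.86 and 10.65 on the combined, thapsigargin and DMSO arrays. In Angpt1 they were Sp100, Kazn and Shisa5, with r of 0.994, 0.987 and 0.9866, and in Angpt2 they were Ap1s3, Mrpl49 and Txndc15, with r of 0.9925, 0.9909 and 0.9904.

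All 9 points share the step between DMSO and the thapsigargin groups, and r is given as a description. Of 12140 genes compared, 1336 had r above 0.95 with Vegfa, 516 with Angpt1 and 387 with Angpt2. By rank correlation 0, 0 and 1 of the 3 nearest genes were the same.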

How the data were processed

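Expression was measured on 9 single-colour arrays, 3 per group. The deposited log2 values, 1 per probe set and array, were produced by the authors; the submitters' processing notes name affy and RMA. Software versions and a genome build were not given in the sources used. RMA makes the arrays' distributions alike, so changes in total RNA per cell cannot be seen. No scanner files were used, so background was not checked, and the number of arrays limits the precision.

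Of 41345 probe sets 23521 carry 1 gene symbol, 1814 several and 16010 none in the array annotation. The symbols of all 9 members matched through Entrez IDs in a RefSeq table. A fit of 3 group means over 22180 genes was made with limma 3.58.1 in R 4.3.3 (lmFit and eBayes, 6 residual degrees of freedom, two-sided), with Benjamini-Hochberg adjustment over all genes, and tested on simulated data. The members and lists were chosen with earlier results of these data known. Named from each list were the 4 largest called changes per comparison at most or, with 0 calls, the 2 brightest genes; any other name was chosen for its role. For likeness the rule took the 3 highest Pearson r among genes above the median level, passing over clone and predicted names. Alternatives were the 6 arrays compared, trend and robust prior, array weights, centring, quantile normalization, a filter on dim genes, other probe sets, the replicate block and each array left out. Chosen after seeing the data were 2 arrays left out together, all alternatives run on the lists, and marker sums without the brightest gene.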

Additional observations from a re-analysis of the deposited data

How the results depend on the processing

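The calls of Vegfa, Vegfb, Angpt2, Flt1 and Angptl4 made in the report passed under every alternative that kept the gene, and Angpt1 lost its call against DMSO after thapsigargin (-0.02) on its dimmer probe set only. Pgf, Angpt1 and Angpt2 are absent from the filter on dim genes. For added forskolin 2 members were called, in place of 1, with array weights, centring, another quantile normalization and the filter, Angptl4 being the further member. The count of all genes called there was 1745 and ranged from 1150 (without combined replicate 2) to 2036 when single arrays were left out. Uncalled differences changed sign without a single array: Pgf after thapsigargin reached 0.026 without DMSO replicate 2 (range -0.12 to 0.026), and for added forskolin Vegfc reached 0.025 (range -0.15 to 0.025) and Angpt1 0.007 (range -0.10 to 0.007) without combined replicate 3. Without DMSO replicate 2, or without combined replicate 2, Angptl4 was called after thapsigargin, making 5 members. Same-numbered arrays deviated together with correlations from -0.074 to 0.247, not all above 0.1, and 3 of 9 arrays correlated best with their own number, so the numbers were not taken as a pairing. With the replicate block 4, 1 and 7 members were called, the addition being Vegfc under the combined treatment against DMSO (-0.30, adjusted p = 0.0491). Of 124 called changes of list genes 103 kept their call under every alternative. Pgf and Angpt2 lie near or below the lower quartiles of the arrays, and background was not measured. The causes of these changes were not tested.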
